A study of Mus musculus with 9 samples.

Results

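Grm7 encodes mGlu7, a metabotropic glutamate receptor. All 3 probe sets annotated to it on the Affymetrix mouse array, 1443119_at, 1458861_at and 1459532_at, were taken as its measurements, so that 1 gene of 18193 and 3 probe sets of 45037 are described. The samples were brain hemispheres without the cerebellum, from untreated adult male mice 11 weeks old (give or take 1 week). The groups were the inbred strains C57BL/6ByJ and BALB/cJ and B6By.C.132.54, a line that by its name carries DNA of a BALB/c donor in the genome of C57BL/6By. The labels do not say which chromosome segment of B6By.C.132.54 is of donor origin. Each of the 9 arrays held RNA of 1 pool of 10 hemispheres, with 3 arrays and 30 mice per strain. The pools average over mice, so the spread given here is that between pools.

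mGlu7 belongs to the group III metabotropic receptors, with mGlu4, mGlu6 and mGlu8. It sits in the active zone of presynaptic terminals, has a low affinity for glutamate, and acts through Gi/o proteins to lower cyclic AMP and to restrain calcium entry and transmitter release at glutamate and GABA synapses. The study behind these arrays put Grm7 forward as a candidate gene for alcohol preference whose transcript level is under cis control in mouse brain. The question for the arrays is therefore whether Grm7 transcript differs between the strains.

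Because the candidate regulation is in cis, the 250 bases ahead of the upstream one of the 2 Grm7 start sites listed in RefSeq are shown (GRCm38.p6, chr6:110645262-110645511, plus strand). Capitals mark a GC box, GGGCGG.

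Grm7 upstream sequence: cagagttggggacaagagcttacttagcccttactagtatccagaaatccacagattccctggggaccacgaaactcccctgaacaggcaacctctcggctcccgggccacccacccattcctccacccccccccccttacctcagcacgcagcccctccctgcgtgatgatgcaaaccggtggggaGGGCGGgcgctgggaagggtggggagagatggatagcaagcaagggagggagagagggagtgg

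The stretch has a GC content of 62.0%, against a median of 52.4% over 32851 upstream windows of the same length. It holds 1 GC box on either strand, at position -63 from the start, and 32.7% of all windows hold at least 1. Neither the cyclic AMP response element TGACGTCA nor the TATA box letters TATAAA occur in it, and 1.55% and 12.4% of windows hold them. The arrays measure no base of this stretch, and BALB/cJ sequence was not analysed here.

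The 3 probe sets read very different parts of the intensity range. The brightest, 1443119_at, had a mean log2 intensity of 7.48 over the 9 arrays, above 90.5% of all probe sets tested. 1458861_at had a mean of 4.40 and stood at the percentile 57. The dimmest, 1459532_at, had a mean of 3.07, at the percentile 27.7, and lay below the median probe set on all 9 arrays. Probe sets differ in how strongly they bind, so these levels do not rank the transcripts that they detect.

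The brightest probe set, 1443119_at, read log2 intensities of 7.60, 7.51 and 7.67 in C57BL/6ByJ replicates 1, 2 and 3. In BALB/cJ it read 7.34, 7.49 and 7.43, and in B6By.C.132.54 it read 7.66, 7.45 and 7.15. All BALB/cJ arrays lay below all C57BL/6ByJ arrays, while the B6By.C.132.54 arrays spanned both strains. The gap between the nearest arrays, 7.49 in BALB/cJ and 7.51 in C57BL/6ByJ, was narrow beside the spread within either strain. Over the array, 5.95% of probe sets had all BALB/cJ values below all C57BL/6ByJ values.

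The order of the means for 1443119_at was 7.59 ± 0.0816 in C57BL/6ByJ, 7.42 ± 0.257 in B6By.C.132.54 and 7.42 ± 0.0758 in BALB/cJ (SD, n = 3 each). The difference of BALB/cJ from C57BL/6ByJ was -0.17 ± 0.122 on the log2 scale (SE; 95% confidence interval -0.44 to 0.10; limma adjusted p = 0.878). That of B6By.C.132.54 from C57BL/6ByJ was -0.17 ± 0.122 (-0.44 to 0.10; limma adjusted p = 0.915), and the last 2 strains differed by 0.0022 (-0.27 to 0.27; limma adjusted p = 0.999). No neighbours in the order differed beyond their spread. The intervals leave room for a level up to 0.44 lower than in C57BL/6ByJ in either strain, which these arrays could not tell from no difference.

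The B6By.C.132.54 mean of 1443119_at was drawn down by replicate 3, the lowest of all 9 arrays for this probe set and for 1458861_at. Over all probe sets that array had an interquartile range of 2.73, the narrowest of the 9, where the widest was 2.98. Its mean correlation of 0.988 with the other arrays of B6By.C.132.54 was also the lowest. Without it the difference of B6By.C.132.54 from C57BL/6ByJ was -0.035 in place of -0.17. Over the 9 fits with 1 array left out this difference ran from -0.29 to -0.035. Replicate 1 of B6By.C.132.54 lay almost as far above the strain mean (0.24) as replicate 3 lay below it (-0.27). Whether the narrow spread of replicate 3 has a part in the reading was not tested.

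The middle probe set, 1458861_at, was nearly flat. It read 4.41, 4.50 and 4.41 in C57BL/6ByJ, 4.29, 4.43 and 4.52 in BALB/cJ, and 4.41, 4.41 and 4.26 in B6By.C.132.54. The 3 strains overlapped throughout. On 4 arrays, 2 of C57BL/6ByJ and 2 of B6By.C.132.54, the deposited intensity was the same value, 21.2. Such repeats limit how finely differences of this size can be read. The strain means were 4.44 ± 0.0545 in C57BL/6ByJ, 4.41 ± 0.114 in BALB/cJ and 4.36 ± 0.0881 in B6By.C.132.54 (SD, n = 3). The differences between strains were -0.024 for BALB/cJ and -0.082 for B6By.C.132.54 against C57BL/6ByJ and -0.058 between the other two, with 95% confidence intervals within -0.28 and 0.17 (limma adjusted p = 0.922 or higher).

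The dimmest probe set, 1459532_at, showed the one strain pattern with no overlap between C57BL/6ByJ and both other strains. C57BL/6ByJ read log2 intensities of 2.60, 2.75 and 2.90. BALB/cJ read 3.08, 3.08 and 3.47, and B6By.C.132.54 read 3.09, 3.35 and 3.27. All 3 C57BL/6ByJ arrays lay below all 6 other arrays, and BALB/cJ and B6By.C.132.54 overlapped. In 2 of the BALB/cJ arrays the deposited intensity was the same value, 8.46. In intensity units this was 6.74 ± 0.698 in C57BL/6ByJ against 9.34 ± 1.52 in BALB/cJ and 9.46 ± 0.833 in B6By.C.132.54 (SD, n = 3), where the median probe set of an array read between 15.5 and 15.99. BALB/cJ and B6By.C.132.54 stood 2.60 and 2.72 intensity units above C57BL/6ByJ. The C57BL/6ByJ arrays lay below all 6 others in 576 probe sets (1.28%), and in 1.93% of those with a mean level under the median. All BALB/cJ arrays lay above all C57BL/6ByJ arrays in 6.65% of probe sets, and all B6By.C.132.54 arrays in 3.08%.

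The dim end of the arrays itself differed somewhat between strains. The share of probe sets with a log2 intensity under 3 was 26.3%, 26.9% and 26.0% on the C57BL/6ByJ arrays, 25.4%, 24.8% and 24.8% on those of BALB/cJ and 25.2%, 26.5% and 23.8% on those of B6By.C.132.54. Gabra6, a GABA-A receptor subunit gene of cerebellar granule cells read at a similarly dim level, had strain means of 2.99, 3.44 and 3.30 in the same order. It measured 0.45 ± 0.129 in BALB/cJ and 0.31 ± 0.129 in B6By.C.132.54 against C57BL/6ByJ (SE; limma adjusted p = 0.217 and 0.915). Gabra6 is 1 gene, named with its values known. The other cerebellum markers with a mean under the median level, Pcp2 and Cbln3, measured -0.075 and 0.022 in BALB/cJ against C57BL/6ByJ. In B6By.C.132.54 against C57BL/6ByJ they measured -0.035 and 0.11. Alb and Ckm, the liver and muscle markers under that level, measured 0.082 and 0.25 in the first comparison and 0.16 and 0.089 in the second. Hba-a1, the dimmest marker, measured -0.0018 ± 0.209 and 0.25 ± 0.209 in the same 2 comparisons (SE; the latter limma adjusted p = 0.915). Its SD was 0 in BALB/cJ and 0.556 in B6By.C.132.54, so its values say little about a shift at the dim end. Over the 2252 probe sets in the level bin of 1459532_at the median differences were 0.042 and 0.030. What part the dim end had in the reading of 1459532_at was not tested.

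**Figure D1:**
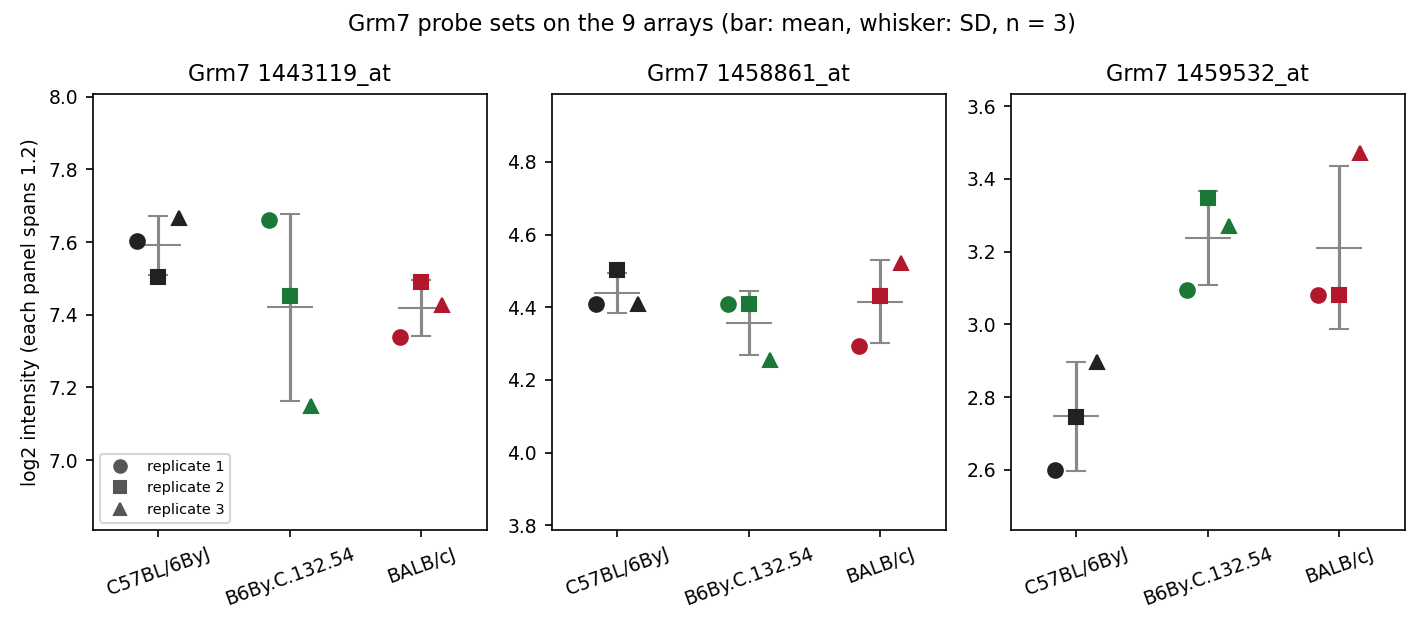
Log2 intensity of the 3 Grm7 probe sets on each array, with strains along the horizontal axis, marker shape for the replicate number, and a bar and whiskers for the mean and SD (n = 3). Each panel spans the same height, so slopes can be compared. In 1459532_at the C57BL/6ByJ arrays (2.60 to 2.90) all sit below the 6 others, while in 1458861_at the strains overlap.

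On the log2 scale the difference of BALB/cJ from C57BL/6ByJ in 1459532_at was 0.46 ± 0.128 (SE; 95% confidence interval 0.18 to 0.75; unadjusted p = 0.00398 and adjusted p = 0.173 by limma). That of B6By.C.132.54 from C57BL/6ByJ was 0.49 ± 0.128 (0.21 to 0.77; unadjusted p = 0.00279 and adjusted p = 0.915 by limma). Neither passed the threshold of 0.05 after Benjamini-Hochberg adjustment over 45037 probe sets. B6By.C.132.54 and BALB/cJ differed by 0.03 (-0.25 to 0.31; limma adjusted p = 0.984). Both differences from C57BL/6ByJ use the same C57BL/6ByJ arrays, so they are not 2 independent observations. None of the 9 pairwise tests of Grm7 passed, where 1.43% of all probe sets passed between BALB/cJ and C57BL/6ByJ, 1.28% between B6By.C.132.54 and BALB/cJ, and 0% between B6By.C.132.54 and C57BL/6ByJ. At an unadjusted p under 0.05, limma counted 1751 probe sets (3.89%) in the last comparison, and 1459532_at had the rank 47 among 45037 by p-value. When no probe set differs, a share of 0.05 is expected under this cut, so the rank alone does not mark a strain difference.

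Arrays with the same replicate number deviated together, in all 9 pairs of arrays with the same number from different strains. Arrays numbered 2 and 3 also did so across numbers (r of 0.0786 to 0.273 between strains), so mainly replicate 1 stood apart. With the replicate number as a block, the BALB/cJ difference of 1459532_at passed (0.46, 95% confidence interval 0.25 to 0.68; limma adjusted p = 0.0348), as did 2.12% of all probe sets. Probe sets that passed and were higher in BALB/cJ made up 0.775% of all. The limma F test over the 3 strains of 1459532_at likewise passed with the block (adjusted p = 0.0375) and not without it (adjusted p = 0.201). The B6By.C.132.54 difference did not (0.28 to 0.70; limma adjusted p = 0.658), at the rank 12 by p-value and with 0% of probe sets passing (3349, or 7.44%, at an unadjusted p under 0.05). Between B6By.C.132.54 and BALB/cJ no Grm7 probe set passed with the block, where 1.85% of all did. By replicate number, BALB/cJ minus C57BL/6ByJ was 0.48, 0.34 and 0.57 for 1459532_at, and B6By.C.132.54 minus C57BL/6ByJ was 0.50, 0.60 and 0.37. Each difference was thus positive within all 3 replicate numbers. Any pairing would give this, since all C57BL/6ByJ arrays lay below the others, so it adds nothing to the block. For 1443119_at the BALB/cJ differences were -0.26, -0.02 and -0.24, and those of B6By.C.132.54 were 0.06, -0.05 and -0.52. The blocked call of 1459532_at was lost when any of the C57BL/6ByJ replicates was left out (limma adjusted p of 0.200, 0.137 and 0.143 for 1, 2 and 3), with BALB/cJ replicate 1 left out (0.186) or 3 (0.160), without B6By.C.132.54 replicate 1 (0.0709), after quantile normalization (0.0787) and on log2(value + 16) (0.152).

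**Figure D2:**
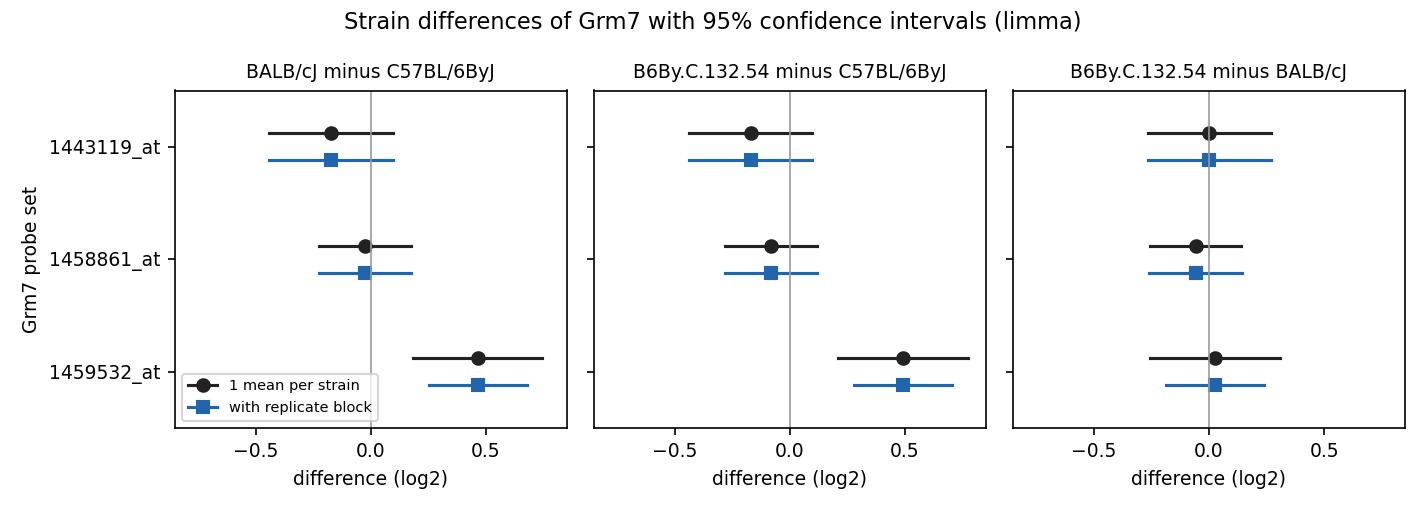
Strain differences of each Grm7 probe set on the log2 scale with 95% confidence intervals from limma, for the model with 1 mean per strain (circles) and with the replicate block (squares). The intervals of 1459532_at against C57BL/6ByJ lie above 0 (0.18 to 0.75 and 0.21 to 0.77 without the block). They are not adjusted for the number of probe sets tested.

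Exact permutation tests over the arrays gave the same order of the probe sets. A test of all 3 strains at once over 1680 arrangements, whose smallest possible p is 0.00357, gave p = 0.0393 for 1459532_at, p = 0.389 for 1443119_at and p = 0.529 for 1458861_at (exact, unadjusted for the 3 tests). The result for 1459532_at was lost when arrays were permuted within replicate numbers (exact p = 0.0833, where 0.0278 is the smallest possible), without C57BL/6ByJ replicate 1 or 2 (exact p = 0.0821 and 0.0607), and without B6By.C.132.54 replicate 3 (exact p = 0.05). For 2 strains alone, 3 arrays against 3 cannot give a two-sided p below 0.1. That value was reached by 1459532_at in both differences from C57BL/6ByJ and by 1443119_at between BALB/cJ and C57BL/6ByJ (exact permutation test).

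At an unadjusted exact p under 0.05, the strain pattern differed between Grm7 probe sets in 1 of the 3 pairs tested. It did not differ there when arrays were permuted within replicate numbers. The difference between 1458861_at and 1459532_at on each array varied between strains, at 1.69 ± 0.16 in C57BL/6ByJ, 1.204 ± 0.15 in BALB/cJ and 1.12 ± 0.172 in B6By.C.132.54 (SD, n = 3; exact permutation p = 0.0214 over 3 strains, and 0.0833 within replicate numbers). That between 1443119_at and 1459532_at was 4.84 ± 0.138, 4.21 ± 0.23 and 4.18 ± 0.351 in the same order, and did not pass (exact permutation p = 0.0643, and 0.0143 without B6By.C.132.54 replicate 1). Between 1443119_at and 1458861_at the difference did not pass (exact permutation p = 0.507). These 3 tests are unadjusted. As 1458861_at was nearly flat, its difference from 1459532_at largely repeats the pattern of 1459532_at and is not a separate result. The means of 1443119_at were lower in BALB/cJ and B6By.C.132.54 than in C57BL/6ByJ, and those of 1459532_at were higher. In the mean of the 3 probe sets on each array these offset each other, leaving differences of 0.089 for BALB/cJ and 0.079 for B6By.C.132.54 on the log2 scale.

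Across the 9 arrays the probe sets were not clearly related to each other. Pearson's r was 0.562 between 1443119_at and 1458861_at (exact permutation p = 0.113, adjusted 0.234 over 3 relations), and Spearman's rho was 0.279 (exact p = 0.468, adjusted 0.703). It fell to 0.223 without the 2 arrays farthest from the median of 1443119_at. Between 1443119_at and 1459532_at r was -0.514 (exact p = 0.156, adjusted 0.234) and rho -0.561 (exact p = 0.122, adjusted 0.366), with r = -0.455 without the 2 farthest arrays. Between 1458861_at and 1459532_at r was -0.09 (exact p = 0.813, also adjusted) and rho 0.00874 (exact p = 0.989, also adjusted). It turned to 0.251 without the 2 arrays farthest from the median of 1458861_at. After the strain means were taken off, these r were 0.52, -0.159 and 0.388. Each replicate number holds 3 arrays, too few for a value within it.

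Against all probe sets of a similar level, 1459532_at lay outside the central 95% of differences. Probe sets in its level bin (2252 probe sets with means of 2.99 to 3.13) had a central 95% from -0.23 to 0.27 between BALB/cJ and C57BL/6ByJ, where it measured 0.46. Between B6By.C.132.54 and C57BL/6ByJ that range was -0.22 to 0.29, where it measured 0.49. A larger absolute difference was found in 2.33% of all probe sets in the first comparison and in 0.16% in the second. The brightest probe set lay inside its range in both. In its bin the median difference of B6By.C.132.54 from C57BL/6ByJ was itself -0.079, with the lower quartile at -0.14, and its own was -0.17.

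**Figure D3:**
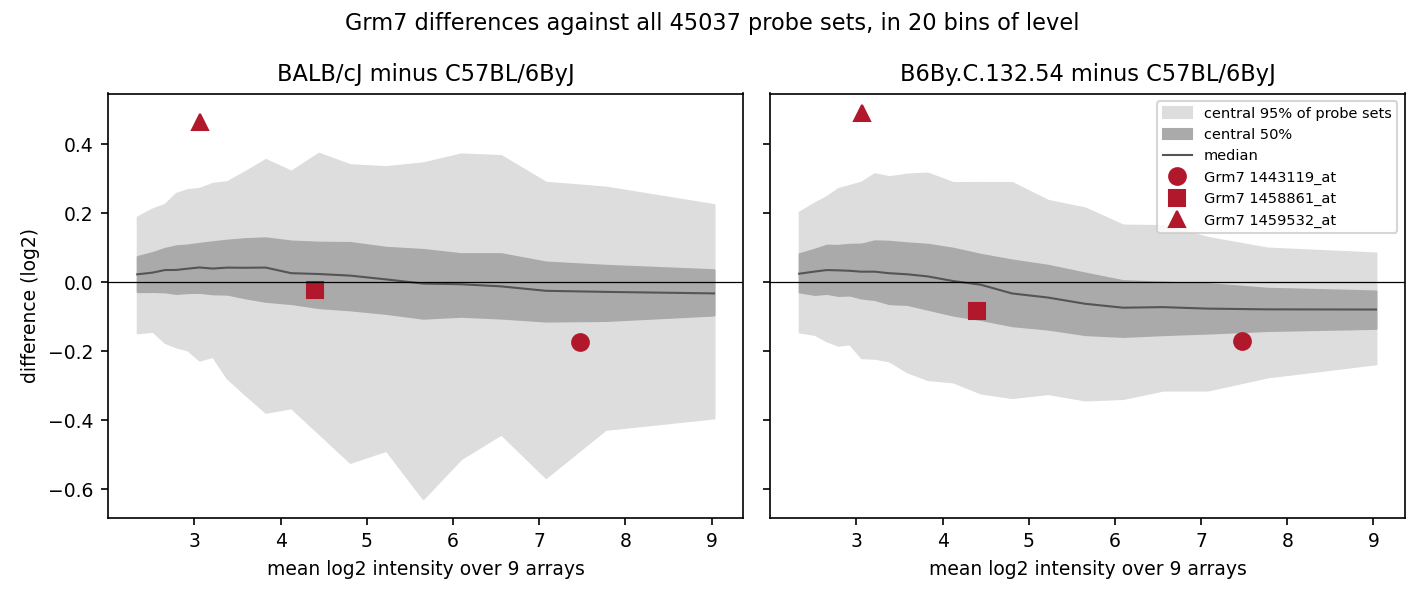
Strain difference on the log2 scale against mean log2 intensity for 45037 probe sets in bins of level, shown as the central 95% (light), central 50% (dark) and median (line), with the 3 Grm7 probe sets in red. 1459532_at lies above the light band in both panels (0.46 and 0.49), and the other Grm7 probe sets lie inside it. The panels share the C57BL/6ByJ arrays.

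None of the other measured metabotropic glutamate receptors passed the test between strains. Of the 7 listed, 5 had a probe set of their own (Grm2, Grm3, Grm4, Grm5 and Grm8), and 0 of 5 passed in any comparison, while by their brightest probe set 1.32% of genes passed between BALB/cJ and C57BL/6ByJ, 1.10% between B6By.C.132.54 and BALB/cJ and 0% between B6By.C.132.54 and C57BL/6ByJ. Grm4 and Grm8, the group III relatives of Grm7, measured 0.23 ± 0.14 and -0.094 ± 0.094 (SE) in BALB/cJ against C57BL/6ByJ (limma adjusted p = 0.825 and 0.946). In B6By.C.132.54 they measured -0.035 and 0.07 against C57BL/6ByJ (limma adjusted p = 0.976 and 0.934). Grm5, the excitatory Gq-coupled receptor of postsynaptic sites, had the lowest differences of the 5 from C57BL/6ByJ, -0.23 and -0.26 (limma adjusted p = 0.908 and 0.915). Grm2 and Grm3, the group II receptors, lay between -0.14 and 0.084 in these comparisons.

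Among 10 measured genes whose proteins bind mGlu7 or act on it, 1 fell in BALB/cJ and none rose, beside 1.32% of all genes called in that comparison. Prkca, protein kinase C alpha, a kinase family that phosphorylates the receptor's tail, fell by 0.51 ± 0.083 (SE) in BALB/cJ against C57BL/6ByJ (log2; limma adjusted p = 0.01). It was 0.48 higher in B6By.C.132.54 than in BALB/cJ (limma adjusted p = 0.0154), and -0.03 against C57BL/6ByJ (limma adjusted p = 0.967). BALB/cJ against C57BL/6ByJ no longer passed with BALB/cJ replicate 1, BALB/cJ replicate 3 or C57BL/6ByJ replicate 2 left out (limma adjusted p of 0.0527, 0.0525 and 0.0639). B6By.C.132.54 against BALB/cJ no longer passed in 4 of 9 such fits (0.0558 to 0.0768, each leaving out 1 of BALB/cJ replicates 1 and 3 and B6By.C.132.54 replicates 1 and 2), nor with the 6 arrays compared alone (0.0617). Neither of its other probe sets was called between BALB/cJ and C57BL/6ByJ (differences of 0.0082 and -0.086).

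Pick1, which binds the C-terminal end of mGlu7 and clusters it at the active zone, measured 0.15 ± 0.14 (SE) in BALB/cJ and -0.099 in B6By.C.132.54 against C57BL/6ByJ (limma adjusted p = 0.944 and 0.939). Elfn1, which encodes a postsynaptic protein that recruits mGlu7 across the cleft, measured -0.06 and -0.14 (limma adjusted p = 0.984 and 0.915). Grip1, a scaffold with PDZ domains, had the largest difference of this list in B6By.C.132.54 against C57BL/6ByJ, 0.15 ± 0.104 (limma adjusted p = 0.915). The median of the 10 was 0.017 for BALB/cJ and -0.071 for B6By.C.132.54, beside 0.015 and -0.016 over all genes. Pick1 and Elfn1 are named for their roles, with their values known.

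Of 28 G proteins and effectors of Gi/o-coupled receptors, 2 rose in BALB/cJ against C57BL/6ByJ and none fell, beside 1.32% of all genes called. These were Gnb1, a G protein beta subunit (a log2 difference of 2.00 ± 0.131, SE; limma adjusted p = 1.24e-05), and Kcnj9, a G protein-gated potassium channel subunit (1.70 ± 0.177; limma adjusted p = 0.000399). The other probe sets of both genes gave other sizes. For Gnb1, 1454696_at rose by 4.97 (limma adjusted p = 9.89e-09) and 1425908_at was not called (0.39). For Kcnj9, 1426115_a_at rose by 1.14 (limma adjusted p = 0.0143), 1428602_at moved the opposite way (-0.85; limma adjusted p = 0.00174) and 1433029_at was not called (0.15). Against BALB/cJ, B6By.C.132.54 was lower by the same probe sets in Gnb1 (-2.19; limma adjusted p = 6.35e-06) and Kcnj9 (-2.22; limma adjusted p = 6.02e-05). Kcnj9 also had the largest difference of the list between B6By.C.132.54 and C57BL/6ByJ, -0.51 ± 0.177 (SE), which did not pass (limma adjusted p = 0.915). The median difference of the list was -0.007 in BALB/cJ and -0.10 in B6By.C.132.54 against C57BL/6ByJ. Of 8 genes of the release machinery 0 passed. In BALB/cJ the largest difference from C57BL/6ByJ was that of Stx1a, the plasma membrane SNARE syntaxin (-0.13 ± 0.092, SE), and in B6By.C.132.54 that of Unc13a, which primes vesicles (0.16 ± 0.127). Over all 4 lists 0 of 51 genes passed between B6By.C.132.54 and C57BL/6ByJ.

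**Figure D4:**
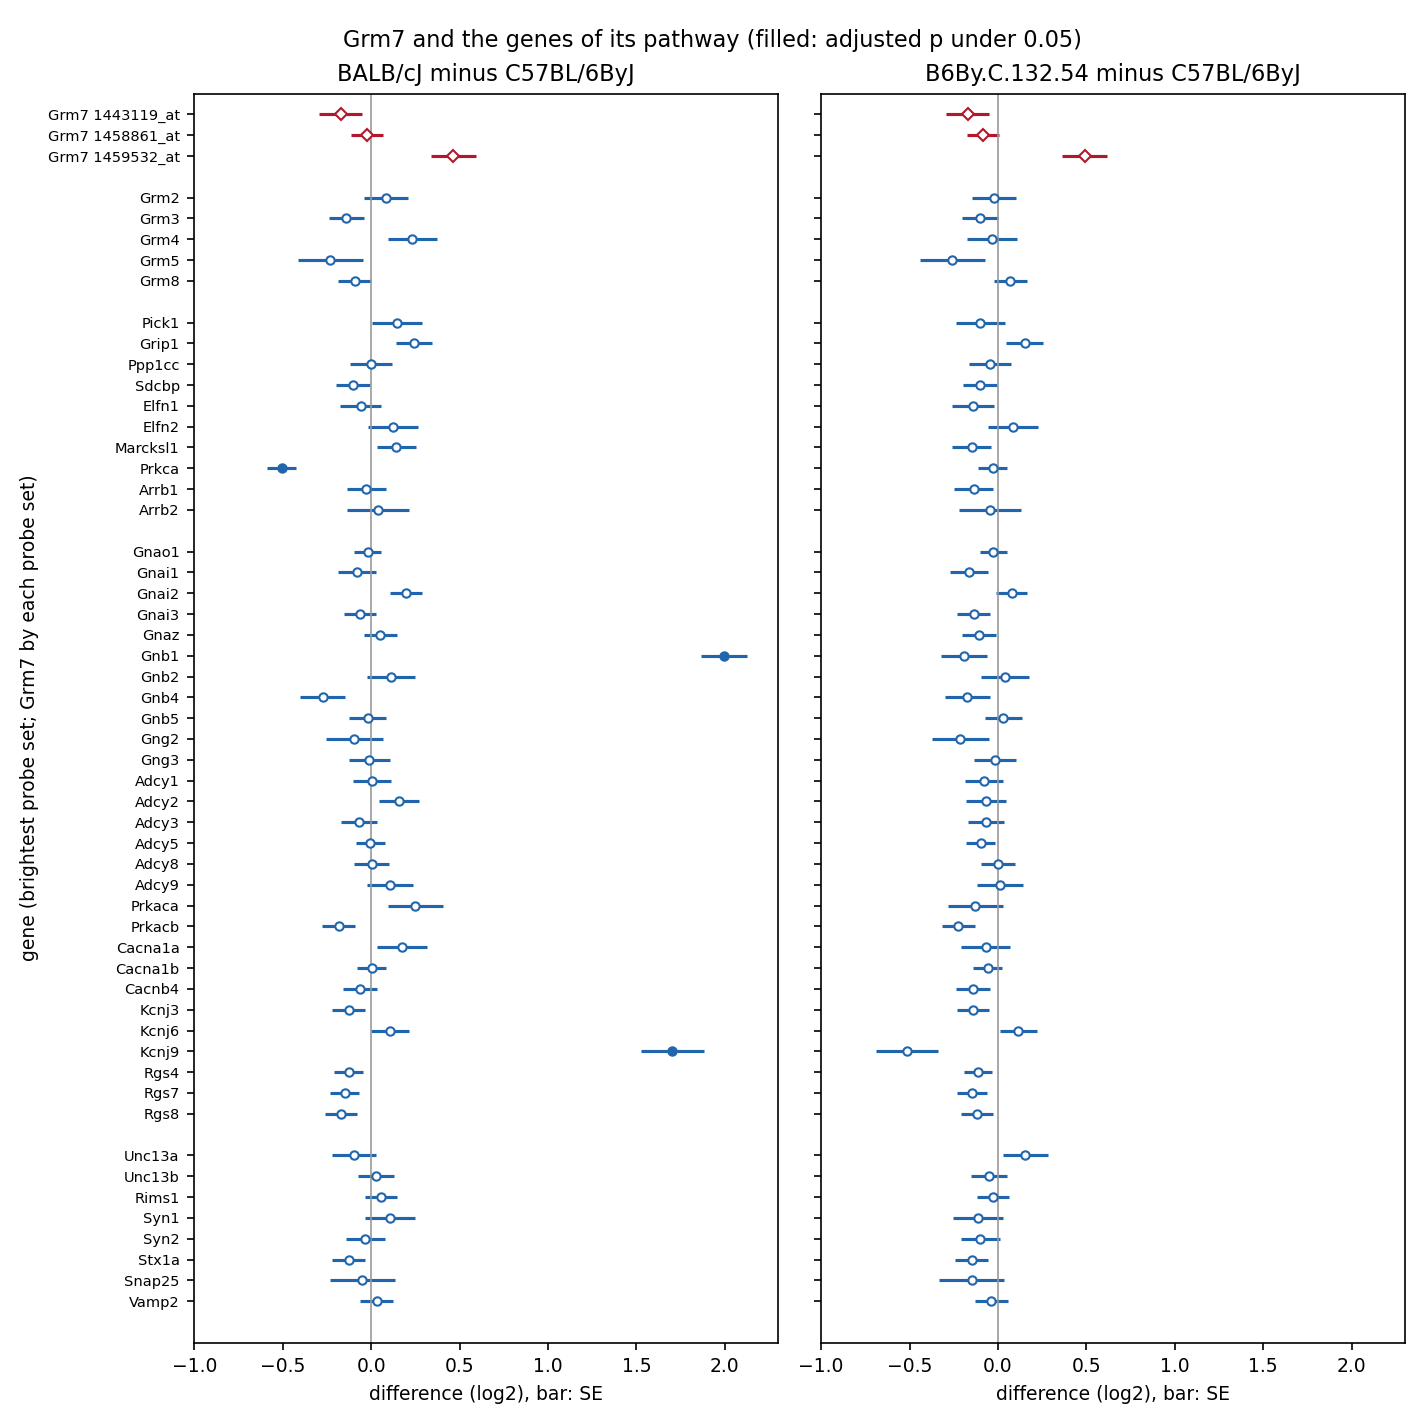
Log2 differences from C57BL/6ByJ, with bars for the SE, of the 3 Grm7 probe sets (diamonds) and 51 genes of its pathway by their brightest probe set (circles), filled where the limma adjusted p was under 0.05. Prkca (-0.51), Gnb1 (2.00) and Kcnj9 (1.70) are filled in BALB/cJ, and no symbol is filled in B6By.C.132.54.

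The genes next to Grm7 on chromosome 6 did not pass the test. Of the 3 nearest measured genes on each side (0610040F04Rik, Bhlhe40 and Edem1 on one, 1700054K19Rik, Lmcd1 and Ssu2 on the other), 0 of 6 were called in any comparison, where 1.32%, 1.10% and 0% of all genes were, a background that a count of 0 among 6 does not stand apart from. Their differences from C57BL/6ByJ ran from -0.071 to 0.23 in BALB/cJ and from -0.13 to 0.30 in B6By.C.132.54, the latter highest in Lmcd1.

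The genes most like Grm7 over the 9 arrays were other genes for each probe set. For 1443119_at they were Parp12, Cep120, Tmem9b, Txnip and Upf2 (Pearson's r of 0.931 to 0.956). For 1458861_at they were Emc3, Ccny, Ahcyl1, Phyhipl and Mapk7 (r of 0.958 to 0.979), and for 1459532_at Phf3, Plekhm1, Dusp3, Slc35e4 and Tle3 (r of 0.895 to 0.940). With the strain means taken off, r was 0.928 to 0.95 for the first 5 and 0.951 to 0.986 for the next 5. For the genes like 1459532_at it was 0.755 to 0.895. The genes were chosen by r over the same 9 arrays. The between-strain F was low for 1443119_at (1.13) and 1458861_at (0.68), so for these the values largely repeat the chosen r. For 1443119_at the largest deviations were those of B6By.C.132.54 replicates 1 (0.24) and 3 (-0.27). Whether the likenesses held within each strain was not tested. These are the highest of all named probe sets at or above the median level, over arrays that share replicate numbers, and are a description.

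Marker genes were checked against the labelled tissue. The neuron markers Snap25 and Syt1 stood above 99.7% of probe sets, whose median level was 3.97 (log2). Of 4 genes of liver and muscle, Alb (3.80 to 3.95 as strain means) and Ckm (3.49 to 3.74) lay below that median and Apoa1 (5.0 to 5.25) and Acta1 (5.62 to 5.96) above it. Of 5 cerebellum markers Pcp2, Cbln3 and Gabra6 lay below that median in all strains, and Cbln1 (6.53 to 6.66) and Calb2 (8.15 to 8.22) above it. Of 46 markers of cell types and other tissues, 1 rose and 2 fell in BALB/cJ against C57BL/6ByJ, beside 1.32% of all genes called, and 0 passed in B6By.C.132.54 against C57BL/6ByJ. Against BALB/cJ, Slc17a7 rose by 1.24 in B6By.C.132.54, and Gfap (-0.71) and Rgs5 of pericytes (-0.56) fell (limma adjusted p = 0.0088, 0.0238 and 0.0361), beside 1.10% of all genes. Of these calls, that of Gfap was lost with any BALB/cJ replicate or B6By.C.132.54 replicate 1 or 3 left out (limma adjusted p of up to 0.123). That of Rgs5 was lost in the same fits and without C57BL/6ByJ replicate 2 or 3 (up to 0.176). The other Rgs5 probe sets measured -0.36, -0.42 and -0.33 and were not called (limma adjusted p of 0.647, 0.272 and 0.205). The other Gfap probe sets were called in this comparison, at -0.81 and -0.73 (limma adjusted p = 0.0122 and 0.0417). In BALB/cJ against C57BL/6ByJ they rose by 0.89 and 0.71 (limma adjusted p = 0.00619 and 0.0456). The vesicular glutamate transporter gene Slc17a7 of cortical glutamate neurons fell by 1.45 in BALB/cJ (limma adjusted p = 0.00272), while the other glutamate neuron markers Slc17a6, Camk2a and Neurod6 were not called. Gfap of astrocytes rose by 0.92 (adjusted p = 0.00393), and Cldn5 of endothelium fell by 0.54 (adjusted p = 0.0466), a call lost in 8 of 9 fits with 1 array left out, all but that without B6By.C.132.54 replicate 1 (limma adjusted p of 0.0511 to 0.213). Their part in the Grm7 values was not tested. In pooled tissue, fewer cells that hold Grm7 transcript and less transcript per cell cannot be told apart.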

How the data were processed

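Affymetrix Mouse430_2 arrays were hybridised with cRNA from 7 µg of total RNA, per the labels' protocols. The table deposited by the authors holds linear signal intensities, 1 for each array and probe set. GCOS and RMA appear in the submitters' processing notes, and the background and normalization steps are not given in the sources used here, so it is unknown how far dim values were compressed.

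Values were log2-transformed without a pseudocount. Of 45101 probe sets, 64 controls were left out. Names came from the platform annotation (34945 probe sets with 1 gene, 932 with several, 9160 with none), updated by Entrez identifier through RefSeq for GRCm38.p6 (34741 matched). It gave names and gene order, since the array table names no build.

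All 9 arrays entered 1 linear model, a mean for each strain, in limma 3.58.1 in R 4.3.3 (two-sided moderated test, Benjamini-Hochberg adjustment over 45037 probe sets, threshold 0.05), and tested on simulated data. The design text states 3 batches with every strain in each, but no label ties a replicate number to a batch. Deviations from strain means correlated between same-numbered arrays (r of 0.148 to 0.67 in 9 of 9 pairs). Over 18 pairs with different numbers r ran from -0.58 to 0.273, and all pairs of a replicate 2 with a replicate 3 were positive. The replicate number was taken to pair the arrays and used as a block beside the unblocked model. These r do not show that the numbers mark 3 matched batches. Exact permutation tests, two-sided for 2 strains, were run in Python 3.11.15.

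Named genes were every Grm7 probe set, the 5 genes most correlated with each, the other metabotropic receptors, called genes and those with the largest differences of 3 further lists, and 3 measured neighbours on each side. Each gene was represented by its brightest probe set. The gene and the lists were chosen with earlier results of these data known. No label says that the pools of a strain share no source, so p-values measure the spread between pools. The number of arrays limits the precision. Probe sequences, and so the part of the transcript each probe set reads, were not used here. Alternatives were another normalization, an intensity trend, another pseudocount, a level filter, the 6 arrays compared alone, the replicate block and leaving out each array.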

Additional observations from a re-analysis of the deposited data

How the results depend on the processing

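Of 267 values of the Grm7 probe set differences under other settings, 239 kept their direction and their side of the threshold. No Grm7 difference passed as reported, so keeping the side means staying uncalled. Between B6By.C.132.54 and C57BL/6ByJ at most 1 probe set of the whole array passed in any setting. There the side was all but fixed in advance, so the count is no measure of robustness. The BALB/cJ difference of 1459532_at from C57BL/6ByJ passed with the replicate block (0.46, limma adjusted p = 0.0348). Among settings added after seeing the data, the blocked difference also passed with the 6 arrays compared alone (0.46, adjusted p = 0.0267) and with an intensity trend (0.46, 0.0296). With each array left out it ran from 0.38 to 0.56, and its limma adjusted p from 0.0153 to 0.200. The blocked call was lost without any of the C57BL/6ByJ replicates, without BALB/cJ replicate 1 or 3, and without B6By.C.132.54 replicate 1. Quantile normalization and an added pseudocount also lost the blocked call, so it depended on the setting. The limma F test of 1459532_at over the 3 strains also passed only with the block (adjusted p = 0.0375, against 0.201). The block changed no other limma call of a Grm7 probe set. Quantile normalization and equal array medians turned no direction. Leaving out the probe sets under the median level removes 1459532_at, so it has no value there. The mean of the 3 probe sets gave 0.0891 (BALB/cJ) and 0.0792 (B6By.C.132.54) against C57BL/6ByJ in place of each probe set's own difference.

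Differences near 0 turned sign in some fits with 1 array left out, and why was not tested. 1458861_at in BALB/cJ against C57BL/6ByJ ran from -0.077 to 0.0361, and with the block turned to 0.0409 without BALB/cJ replicate 1. In B6By.C.132.54 against BALB/cJ, 1443119_at ran from -0.118 to 0.138, and with the block was -0.1003, -0.135 and -0.0171 without BALB/cJ replicate 1, B6By.C.132.54 replicate 1 and B6By.C.132.54 replicate 2. In the same comparison 1458861_at ran from -0.118 to -0.0053, and with the block was 0.028 without BALB/cJ replicate 3 and 0.0113 without B6By.C.132.54 replicate 3. There 1459532_at ran from -0.0387 to 0.156, and with the block was -0.0655 and -0.0611 without replicate 2 of BALB/cJ and of B6By.C.132.54.

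The between-strain F of 1459532_at, 7.63 as reported, was 16.8 with the replicate block (exact p = 0.0833) and 6.64 on log2(value + 16) (exact p = 0.05), and ran from 4.18 to 11.9 with each array left out. For 1458861_at minus 1459532_at it was 29.4 with the block (exact p = 0.0833), and for 1443119_at minus 1459532_at 3.46 to 15.3 with each array left out. Counts of called probe sets between BALB/cJ and C57BL/6ByJ, 644 as reported, were 953 with the block, and without it ran from 410 (without C57BL/6ByJ replicate 2) to 706 with each array left out. On log2(value + 16) the differences of 1459532_at were 0.16 and 0.16. At so dim a level the added 16 shrinks any log2 difference by arithmetic, so these values do not tell whether the difference is real. Why settings change its call was not tested.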
